A study of Schizosaccharomyces pombe with 3 samples.

Results

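The phosphate acquisition genes of fission yeast (Schizosaccharomyces pombe) are followed here through the features that carry their names on arrays of open reading frames (ORFs) and intergenic regions. The genes are pho1, pho84, pho842, tgp1 and pho7, and their features were found by matching gene symbols and systematic names to the spot names of the scanner tables. This gave 13 features of 9984 on the array, made up of 5 ORF features, 5 intergenic features (called upstream features below, since each is named for the gene 3' of it) and 3 features of a second type for long intergenic regions (called long upstream features). Of these, 11 were measured on all arrays, against 4279 of all features. There was a single group of 3 two-colour arrays, replicates 1 to 3. Each held chromatin precipitated with an antibody against green fluorescent protein (GFP) from cells with GFP-tagged Tup11, set against the input of the same strain, from mid-log cultures in rich YES medium. The labels give neither the rest of the genotype, nor the promoter that drives the tagged protein, nor the phosphate content of the medium. Untagged or phosphate-starved cells were not analysed here.

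Tup11 is related to Tup1, a corepressor of budding yeast that is brought to promoters by DNA-binding repressors. When phosphate is plentiful, fission yeast keeps pho1, pho84 and tgp1 repressed, and transcription of a long non-coding RNA across each promoter takes part in this: prt for pho1, prt2 for pho84 and nc-tgp1 for tgp1. When phosphate is scarce, the zinc cluster activator Pho7 binds its sites in these promoters and the genes are induced. Pho1 is the cell surface acid phosphatase, Pho84 an inorganic phosphate transporter of the plasma membrane, Pho842 a predicted phosphate transporter of the same family, and Tgp1 a glycerophosphodiester transporter.

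The promoter sequences are shown because they lie in the gaps for which the upstream features are named and because those of pho1, pho842 and tgp1 hold the letters known for Pho7 binding. Each is the 250 bases before the RefSeq gene start in build ASM294v3, 5' to 3' on the gene's strand. Capitals mark matches to TCGNNNNTTNAA, searched on both strands. The windows are chrII:4447256-4447505 (plus strand) for pho1, chrI:4362218-4362467 (plus strand) for pho842, chrII:352412-352661 (minus strand) for tgp1, chrII:4443851-4444100 (plus strand) for pho84 and chrII:4442292-4442541 (plus strand) for prt2.
pho1: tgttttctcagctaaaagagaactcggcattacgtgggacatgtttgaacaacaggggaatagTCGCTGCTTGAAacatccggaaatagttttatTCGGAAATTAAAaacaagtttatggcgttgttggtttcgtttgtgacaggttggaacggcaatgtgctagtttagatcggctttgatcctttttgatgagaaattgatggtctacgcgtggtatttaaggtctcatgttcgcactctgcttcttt
pho842: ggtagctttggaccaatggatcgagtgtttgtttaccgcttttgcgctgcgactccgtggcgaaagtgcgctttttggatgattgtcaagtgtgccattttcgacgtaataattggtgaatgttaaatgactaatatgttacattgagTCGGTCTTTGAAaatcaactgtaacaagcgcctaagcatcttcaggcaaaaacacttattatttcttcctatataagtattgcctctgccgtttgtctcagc
tgp1: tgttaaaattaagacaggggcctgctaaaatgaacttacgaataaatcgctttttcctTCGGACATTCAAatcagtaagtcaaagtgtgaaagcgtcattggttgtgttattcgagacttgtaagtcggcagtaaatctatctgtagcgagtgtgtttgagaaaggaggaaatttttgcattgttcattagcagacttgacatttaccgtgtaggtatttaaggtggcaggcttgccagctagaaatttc
pho84: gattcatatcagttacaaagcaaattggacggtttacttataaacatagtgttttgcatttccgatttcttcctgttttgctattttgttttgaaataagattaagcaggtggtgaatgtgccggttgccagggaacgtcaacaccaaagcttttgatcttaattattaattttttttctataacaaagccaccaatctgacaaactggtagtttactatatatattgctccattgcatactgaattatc
prt2: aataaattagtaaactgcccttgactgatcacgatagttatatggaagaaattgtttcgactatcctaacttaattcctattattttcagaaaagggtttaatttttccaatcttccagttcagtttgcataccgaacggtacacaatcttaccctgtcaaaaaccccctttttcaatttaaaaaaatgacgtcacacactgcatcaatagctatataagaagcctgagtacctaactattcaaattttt
There were 2 matches before pho1, 187 and 155 bases upstream of the gene start, and 1 each before pho842 (at 102 bases) and tgp1 (at 192 bases). The windows of pho84, prt2 and pho7 held 0. Of 5112 promoter windows of this length in the genome, 5.81% held the motif. Totals over the whole gaps include these windows and the matches in them. The pho84 gap held 3, at 1139, 875 and 824 bases before the coding sequence and so outside its window. This gap also takes in the prt2 window and the start of prt2. The pho1 and pho842 gaps held 3 each. The tgp1 gap held 1, the match in its window, and the pho7 gap held 0. Of all named gaps with 0.8 to 1.2 times the length of each, the share that held a match was 50.9% for pho84, 29.96% for pho1, 56.0% for pho842, 61.3% for tgp1 and 20.0% for pho7. Where a spotted product lies within its gap is not known. These are matches of letters, and binding of Pho7 was not measured.

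Levels are given as the log2 ratio of precipitate to input after the median of each array was set to 0. Per the labels, input carried Cy3 and precipitate Cy5 on every array, but the scanner tables name their channels A and B without a dye. The ratio of channel B to A on replicate 3 ran against the other arrays over features (r = -0.54 with replicate 1, -0.38 with replicate 2), whereas those 2 ran together (r = 0.72), so the direction is not settled. The likely direction takes the precipitate as channel B on replicates 1 and 2 and channel A on replicate 3, the channels that the authors' deposited value tables follow. That those tables follow the precipitate is an assumption, so every sign, order and call below is tied to it. The other reading, with the same letters on every array and hence the sign of replicate 3 turned, is given with most results. A value, sign or order given without it holds in the likely direction only, and the ratio of replicate 3 would change sign. Print batch E120D gave replicates 1 and 2, and F060D gave replicate 3, so print batch and direction cannot be told apart. Depth of signal differed as well: 7769, 4404 and 9924 features were measured on replicates 1 to 3, and input was detected on 37.0% of the spots of replicate 2. The mitochondrial features cob, cox1 and cox2, which a nuclear chromatin protein does not meet, lay between -4.50 and -2.11 in the likely direction.

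In the likely direction, Tup11-GFP precipitate exceeded input upstream of pho1, pho842 and pho7. The upstream feature of tgp1 lay below the array median on replicates 1 and 2 and above it on replicate 3 (-0.56, -0.76 and 0.36). The long upstream feature of the tgp1 gap lay below the median on every array. Of the 4 upstream features measured on all arrays, 3 lay above the median by limma's moderated test (adjusted p under 0.05 over all 4279 features), in a background where 21.6% of intergenic features did so (9.25% of all features). By the rule the labels describe for a binding list, a median percentile rank at or above the 85th, 4 of the 11 measured features were listed, against 10.2% of all features and 23.8% of intergenic ones. The members as a group were not tested. With the same channel letters none of the 11 passed, as 0 of the 4279 features did (0.00%), with 147 (3.44%) at an unadjusted limma p under 0.05.

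**Figure D1:**
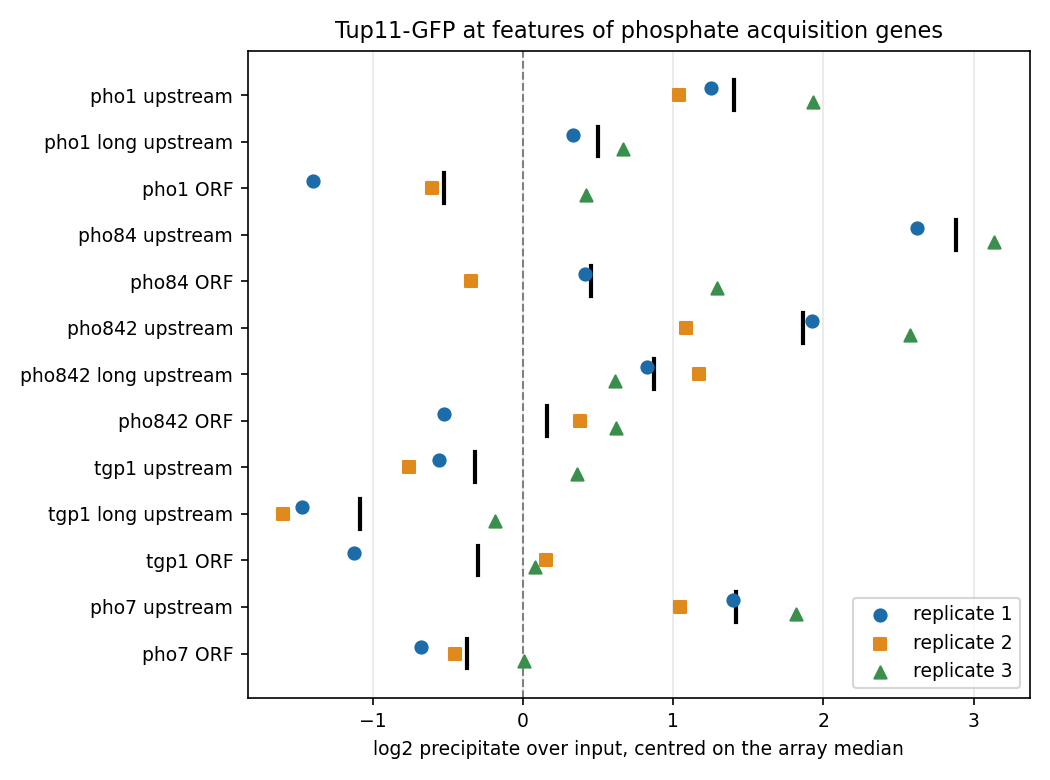
Centred log2 ratio of precipitate over input (x axis) for the 13 features of the phosphate genes in the likely direction, with 1 marker per array and a black bar at the mean. The upstream features of pho1, pho842 and pho7 lie right of the array median (dashed line) on every array, and no ORF feature does so by the test; an absent marker is an array on which the feature was not measured.

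The upstream feature of pho1 had values of 1.25, 1.04 and 1.93 on replicates 1 to 3. All of them lay above the array median, with the highest on replicate 3. With undetected channels set to a low signal, the value on replicate 2 fell below the median, to -0.31. Both channels were detected on both of its spots there, so that change is the median shift of replicate 2, -1.35. The mean was 1.41 ± 0.47 (SD, n = 3), a 2.65-fold ratio, with a limma adjusted p of 0.00137, and the percentile ranks were 89.98, 88.0 and 97.8. With the same channel letters the mean was 0.12 and did not pass (limma adjusted p = 0.976). The feature is named for the gap of 1586 bases at chrII:4445971-4447556, between the coding sequences of pho84 and pho1. The ends of the spotted PCR products were not used here, so only the gap can be given. The long upstream feature of the same gap was measured on replicates 1 and 3 alone, at 0.33 and 0.66. In the likely direction it was below the upstream feature on both. With the same channel letters it was the higher on replicate 3, at -0.66 against -1.93.

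Upstream of pho842, the feature read 1.93, 1.09 and 2.58. The mean was 1.86 ± 0.75 (SD, n = 3), a 3.64-fold ratio, with a limma adjusted p of 7.91e-06. Read with the same letters it was 0.14 and did not pass (limma adjusted p = 0.976). Its gap spans 3161 bases at chrI:4359740-4362900, after ayr1. The long upstream feature of that gap read 0.83, 1.17 and 0.61. It too was above the median on every array, with percentile ranks of 79.3, 91.3 and 85.5. The median of these ranks, 85.5, put it on the binding list. On replicate 2 input was detected on 1 of its 2 spots, so the value and rank there rest on 1 spot. Its mean of 0.87 ± 0.28 (SD, n = 3) missed the test (limma adjusted p = 0.0656), as it did with the same channel letters at 0.46. The 2 features of the gap did not keep one order: upstream minus long upstream was 1.10, -0.09 and 1.97.

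Pho7 itself is encoded by a gene whose upstream gap is shared with cbp4, a gene read in the opposite direction. Its feature read 1.40, 1.04 and 1.82, with a mean of 1.42 ± 0.39 (SD, n = 3), a 2.67-fold ratio, and a limma adjusted p of 0.00124. The same letters gave 0.21, which did not pass (limma adjusted p = 0.961). The feature named for cbp4, from the same 914 bases at chrII:1347466-1348379, read 1.89, 1.79 and 2.41, with a mean of 2.03 ± 0.33 (SD, n = 3) and a limma adjusted p of 7.77e-07 (0.42 with the same channel letters). In the likely direction the cbp4 feature was the higher on each array, by 0.61 ± 0.13 (SD, n = 3). With the same channel letters it was the lower on replicate 3, at -2.41 against -1.82. The array does not separate the pho7 side of this gap from the cbp4 side, since the place of each product within the gap is not known.

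Upstream of pho84 the feature read 2.62 on replicate 1 and 3.14 on replicate 3, or percentile ranks of 99.3 and 99.7, the highest of the 13 features on both arrays in the likely direction. With the same channel letters replicate 3 turns to -3.14, the lowest of the 13, and the mean to -0.26. On replicate 2 input was detected on neither of its 2 spots, so it has no ratio there and is not on the binding list. Its mean of 2.88 (n = 2) had a limma adjusted p of 3.13e-09 in a fit that admits features measured on at least 2 arrays and leaves out the missing value, where 15.4% of intergenic features lay above the median (8.28% of all features). That fit was chosen after seeing the data. The pho84 gap spans 2642 bases at chrII:4441610-4444251. It takes in the whole gap upstream of prt2 and the start of prt2. The upstream features of pho84 and prt2 are thus not named for separate regions.

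For tgp1, the upstream feature read -0.56, -0.76 and 0.36. It was below the median on replicates 1 and 2 and above it on replicate 3, and its mean of -0.32 ± 0.60 (SD, n = 3) missed the test (limma adjusted p = 0.559), as it did with the same channel letters at -0.56. The long upstream feature of the same gap of 3550 bases, chrII:352370-355919, had values of -1.47, -1.60 and -0.19, below the median on every array. Its mean of -1.09 ± 0.78 (SD, n = 3) passed below the median with a limma adjusted p of 0.0173, which 1.87% of intergenic features did (10.6% of all features). That call was lost with the same channel letters (mean -0.96, adjusted p = 0.81), without replicate 1 (adjusted p = 0.492), without replicate 2 (adjusted p = 0.248) and under loess, normexp, limma-trend and centring on shared features.

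In order of level in the likely direction, pho84 stood highest, then pho842, then pho7 and pho1, then tgp1. This order depends on the direction: with the same channel letters it was pho7 at 0.21, pho842 at 0.14, pho1 at 0.12, pho84 at -0.26 and tgp1 at -0.56. The upstream features of pho7 and pho1 differed by 0.01 ± 0.13 (SD, n = 3) and pho842 exceeded pho1 by 0.68, 0.05 and 0.65, so that the first difference lay within the spread between arrays and the second was close to 0 on replicate 2. The differences from tgp1 were larger. The pho1 feature exceeded that of tgp1 by 1.81, 1.80 and 1.57, the pho842 feature by 2.49, 1.85 and 2.22, and the pho7 feature by 1.96, 1.81 and 1.45. Each difference has the same sign on 3 of 3 arrays in the likely direction and does not depend on centring. The exact two-sided sign-flip permutation test gave p = 0.25 for each, the smallest value that 3 arrays allow. For pho84 the differences were 3.19 and 2.78 on the 2 arrays that measured it. With the same channel letters the mean differences were 0.68, 0.71, 0.77 and 0.21 for pho1, pho842, pho7 and pho84. Each difference on replicate 3 is then negative, so the sign is not the same on all arrays.

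In the same ratios, none of the 5 ORF features passed the test in either direction (0 at an unadjusted limma p under 0.05 as well), where 2.27% of ORF features passed above the median and 15.5% below it. The pho1 ORF read -1.40, -0.60 and 0.42, a mean of -0.53 ± 0.91 (SD, n = 3). The mean was -0.81 with the same channel letters. In the likely direction it was below the median on print batch E120D and above it on F060D. The pho84 ORF read 0.41, -0.35 and 1.29, the pho842 ORF -0.53, 0.38 and 0.62, the tgp1 ORF -1.13, 0.15 and 0.08, and the pho7 ORF -0.68, -0.46 and 0.01. Their means with the same channel letters were -0.41, -0.26, -0.35 and -0.38, and none passed. Without replicate 3 the pho1 ORF mean was -1.003 and passed below the median (limma adjusted p = 0.0337).

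Taken within each gene and array, the upstream feature of pho1 exceeded its ORF by 2.65, 1.64 and 1.51, a mean of 1.94 ± 0.62 (SD, n = 3, limma adjusted p = 0.00475 over 752 genes with both features). The difference was 2.45, 0.71 and 1.96 for pho842, a mean of 1.71 ± 0.90 (SD, n = 3, limma adjusted p = 0.0114). It was 2.08, 1.501 and 1.81 for pho7, a mean of 1.80 ± 0.29 (SD, n = 3, limma adjusted p = 0.00576). These 3 genes lay between the 86.2 and 91.6 percentiles of all such differences. For tgp1 it was 0.57, -0.91 and 0.28, with no constant sign and a mean of -0.02 ± 0.79 (SD, n = 3, limma adjusted p = 0.978). For pho84 it was 2.21 and 1.85 (n = 2). Under the same letters the differences were 0.93 for pho1, 0.40 for pho842, 0.59 for pho7, -0.21 for tgp1 and 0.18 for pho84, and none of the 4 tested passed (limma adjusted p from 0.867 to 0.918). An upstream excess was common on these arrays: the median over all 752 genes was 0.79, and 31.4% passed with the upstream feature higher. Over pairs measured on at least 2 arrays 2.02% passed, and the adjusted p of pho1, pho842, pho7 and pho84 was then 0.0574, 0.0933, 0.0596 and 0.0928 in limma. Base composition moves with this comparison, with 32.5% GC in the pho1 gap and 42.1% in its coding sequence. After GC content and length were regressed out of each array, the pho1 difference was 1.43 (limma adjusted p = 0.0244).

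**Figure D2:**
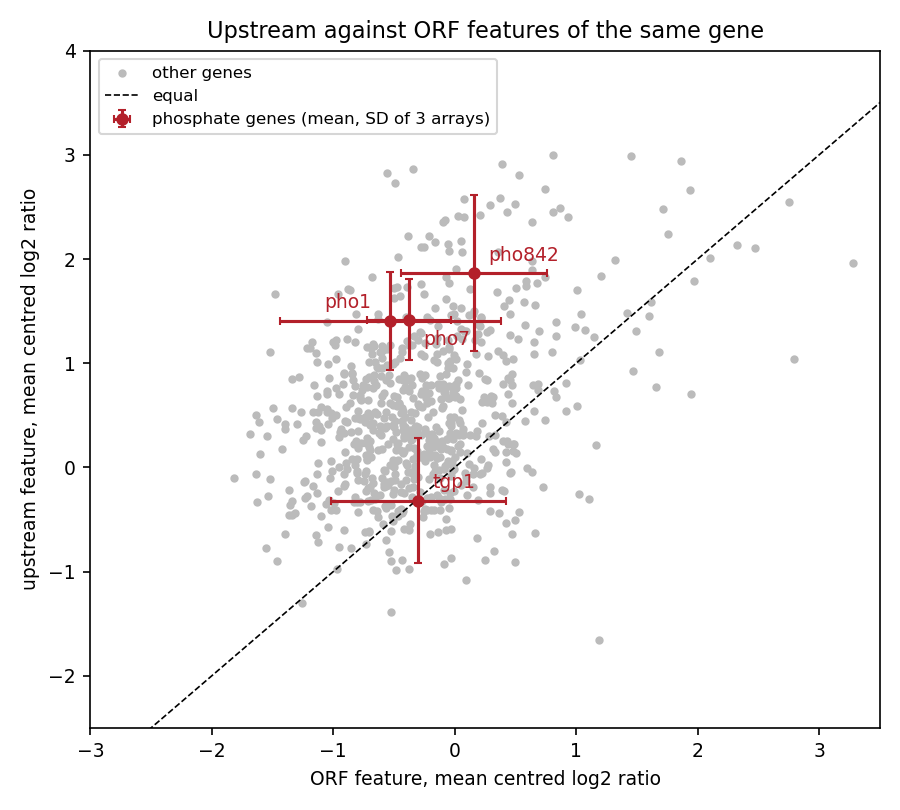
Mean centred log2 ratio of the upstream feature (y axis) against that of the ORF feature (x axis) for 752 genes measured on all arrays, in the likely direction, with the phosphate genes in red and bars of 1 SD over the 3 arrays. Genes pho1, pho842 and pho7 lie above the line of equality and tgp1 lies on it, at a difference of -0.02.

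The 2 channels give more detail on where the ratios came from, as log2 of a spot's signal over the median of the detected spots of its channel. Upstream of pho1, precipitate stood at 0.69, 0.29 and 1.75 and input at -0.80, -0.94 and -0.12. Upstream of pho842, precipitate stood at 1.85, 0.59 and 1.99 and input at -0.32, -0.69 and -0.53. In both, precipitate was above its channel's median on every array and input below, in the likely direction. With the same channel letters the precipitate and input values of replicate 3 change places. Upstream of pho7, precipitate was at 0.80, -0.24 and 1.06 while input was at -0.84, -1.47 and -0.69, so on replicate 2 its ratio rested on a dim input. The pho1 ORF was bright in both channels, with precipitate at 1.13, 1.92 and 2.06 and input at 2.28, 2.33 and 1.70. Brightness also depends on the length and amount of the spotted product, so it is not compared between features, and its part in the ratios was not tested.

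The locus of pho84 and pho1 also holds prt2, further 5'. The order along the plus strand of chromosome II is prt2, pho84, pho1 and fub2. The feature named for the former gene SPBC8E4.02c, which RefSeq now carries under the prt2 non-coding RNA, read 2.74, 1.35 and 4.17, and it was above the median on every array. Its mean was 2.75 ± 1.41 (SD, n = 3), a 6.73-fold ratio, with a limma adjusted p of 3.41e-12. The call was lost without replicate 1 (limma adjusted p = 0.0554), and with the same channel letters the mean turned to -0.026 (limma adjusted p = 0.996). The RefSeq transcript of prt2 runs on over pho84, so its coordinates are not those of this feature. In the channels, precipitate stood at 3.15, 1.502 and 3.49 and input at 0.16, -0.04 and -0.61, above the median on replicate 1 and below it on the others. The feature upstream of prt2, in the gap of 932 bases at chrII:4441610-4442541, read 2.40, 1.83 and 3.41, a mean of 2.54 ± 0.80 (SD, n = 3, limma adjusted p = 1.92e-10), and 0.27 with the same channel letters (limma adjusted p = 0.968). In the likely direction values were lower over the pho84 ORF and higher again at the pho1 upstream feature. The long upstream feature of that gap did not share this rise. It read 0.33 and 0.66 on replicates 1 and 3, below the pho84 ORF at 0.41 and 1.29. Over the pho1 ORF values were below the median on replicates 1 and 2. Downstream of pho1, the fub2 upstream feature read 1.06 and 0.77 on replicates 1 and 3. The long upstream feature of the same gap read 0.35 and 0.27, and the fub2 ORF -0.19 and -0.49. With the same channel letters the means of these 3 features were 0.14, 0.04 and 0.15.

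**Figure D3:**
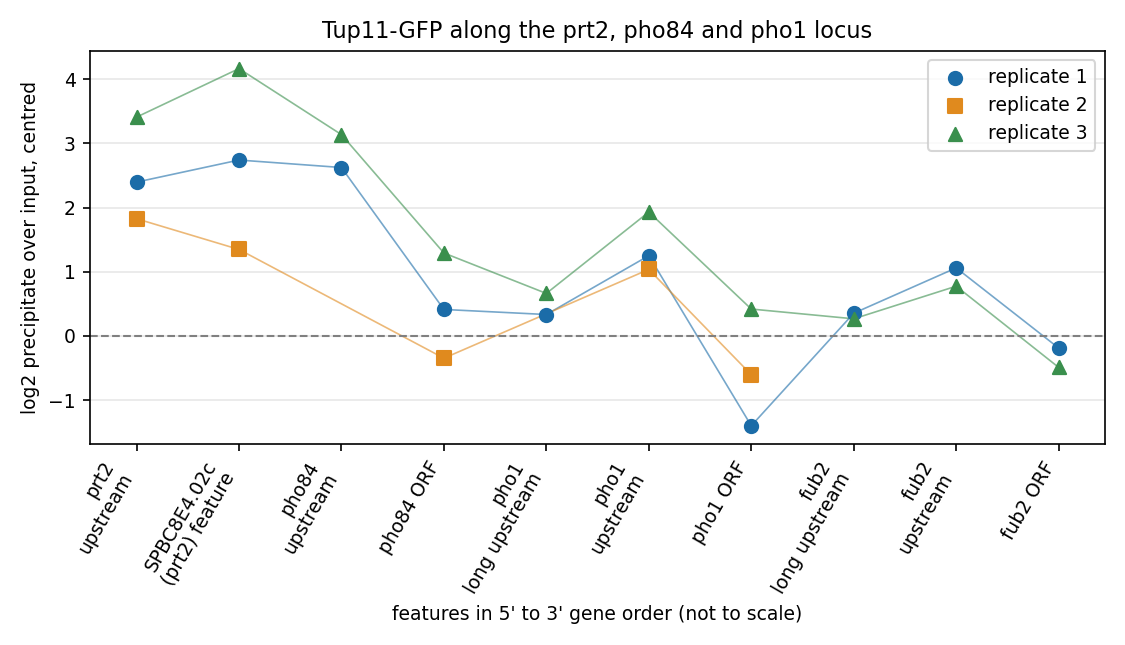
Centred log2 ratio (y axis, likely direction) of the features of prt2, pho84, pho1 and fub2 in gene order (x axis, not to scale), with 1 marker and line per array; lines pass over features not measured on an array. The prt2 features and the pho84 upstream feature are the highest on replicates 1 and 3, and the pho1 upstream feature forms a lower second rise of 1.25, 1.04 and 1.93. The pho1 long upstream feature, at 0.33 and 0.66 on replicates 1 and 3, does not share that rise. The order of upstream and long upstream features within a gap is not known. The gap upstream of prt2 is part of the pho84 gap.

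Flanking features of the other genes varied. The ayr1 ORF, on the far side of the pho842 gap, read 0.08 and 0.13 on replicates 1 and 3. The SPBC1271.08c ORF, beyond the tgp1 gap, read -0.19, 0.65 and 0.40, higher than the tgp1 upstream feature on each array in the likely direction. With the same channel letters it was the lower on replicate 3, at -0.40 against -0.36. The mean of the SPBC1271.08c ORF, 0.29 ± 0.43 (SD, n = 3), missed the test (limma adjusted p = 0.607) and was 0.02 with the same channel letters. The cbp4 ORF read 1.10 and 1.69 on replicates 1 and 3, both above the median in the likely direction. With the same channel letters replicate 3 turns to -1.69.

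Other genes of phosphate homeostasis were taken from a list of 32 symbols (acid phosphatases, the lncRNA features, and factors of inositol pyrophosphate and polyphosphate metabolism, transcription termination and RNA elimination), of which 30 matched a locus. The list had 24 upstream features on the array, of which 7 were measured on all arrays. Of these 7, 3 lay above the median and 0 below, with 21.6% of intergenic features above. Their median was 0.18, against 0.32 for all intergenic features. Besides prt2, those above belonged to 2 genes, neither of which passed with the same channel letters. The upstream feature of pho2, which encodes 4-nitrophenylphosphatase, read 1.97, 1.63 and 2.23, a mean of 1.94 ± 0.30 (SD, n = 3, limma adjusted p = 2.53e-06; 0.46 with the same channel letters). That of pho4, the thiamine-repressible acid phosphatase gene, read 1.43, 1.39 and 0.57, a mean of 1.13 ± 0.48 (SD, n = 3, limma adjusted p = 0.0125; 0.75 with the same channel letters). The 4 that did not pass lay between -0.27 and 0.18. In the fit on at least 2 arrays, 3 further upstream features passed above the median, where 15.4% of intergenic features did. On replicates 1 and 3, pho8 read 1.41 and 2.06, duf89 1.76 and 1.23, and seb1 1.51 and 1.19. Their limma adjusted p-values were 0.00123, 0.00688 and 0.0170. With the same channel letters the means were -0.32, 0.26 and 0.16. The list's other upstream features on 2 arrays did not pass.

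Of the list's 15 ORF features measured on all arrays, 1 passed above the median, that of prt2, and 3 passed below, against 2.27% and 15.5% of all ORF features. The list's median of -0.44 was close to the -0.39 of all ORF features. Those below were ctf1, a cleavage and polyadenylation factor gene, at -1.91, -2.42 and -0.26 (mean -1.53 ± 1.13, SD, n = 3, limma adjusted p = 0.00041), SPBC21H7.03c, a predicted acid phosphatase gene, at -2.32, -1.47 and -0.23 (mean -1.34 ± 1.05, SD, n = 3, limma adjusted p = 0.00248), and ssu72, a phosphatase gene of the RNA polymerase II tail, at -1.37, -1.14 and -0.27 (mean -0.93 ± 0.58, SD, n = 3, limma adjusted p = 0.0488). Each was lower on E120D than on F060D. With the same channel letters the means were -1.36, -1.19 and -0.75, and none passed. The remaining 11 lay between -0.85 and 0.39.

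The features most like each member over the 3 arrays were found by Euclidean distance between centred log2 ratios, as a description; turning the sign of an array leaves these distances as they are. Nearest to the pho1 upstream feature were the upstream features of pex7 (distance 0.10), cyc1 (0.12) and SPBC1685.12c (0.17). Nearest to that of pho842 was the upstream feature of gpm1 (0.05), and nearest to that of pho7 were the SPAC977.13c ORF (0.13) and the upstream feature of SPAC977.14c (0.14). The neighbours of the tgp1 upstream feature were ORF features, those of csl4 (0.11), spn4 (0.14) and rsv2 (0.14).

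In the limma fit every feature has one and the same standard error, 0.357, because the variance prior took all the weight, so a feature's own spread is in its SD only. The labels describe separate experiments, and the spread includes amplification. Within print batch E120D alone, the means were 1.14 for pho1 (limma adjusted p = 0.0143), 1.51 for pho842 (0.000959) and 1.22 for pho7 (0.00842), so these calls held without replicate 3. Without replicate 1 the means were 1.48, 1.83 and 1.43 and the limma adjusted p-values 0.163, 0.103 and 0.174.

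**Figure D4:**
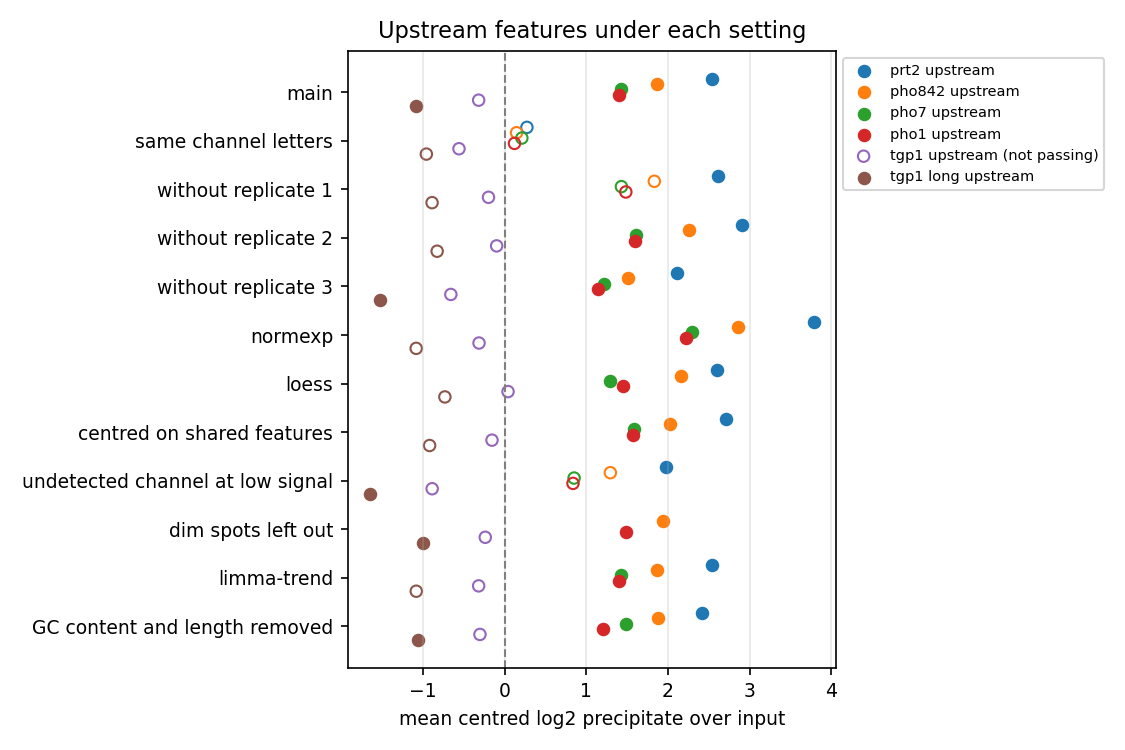
Mean centred log2 ratio (x axis) of 6 upstream features under each processing setting (y axis), filled where the limma adjusted p is under 0.05 and open where it is not. The pho1, pho842 and pho7 means stay right of 0 in every setting shown and lie nearest to 0, between 0.12 and 0.21, when replicate 3 is read with the same channel letters. The pho7 and prt2 features have no point with dim spots left out.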

How the data were processed

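Two-colour arrays of Tup11-GFP precipitate and input were analysed as 1 group of 3. The deposited intensity of each spot, from the scanner tables, is linear and was quantified in TIGR Spotfinder, per the labels; it is the signal integrated over the spot, taken here as already background-subtracted. The value tables deposited by the authors hold a score with column medians of 0.04, 0.14 and 0.01 over rows with a value. Its scale stays unknown, that it follows the precipitate is assumed, and its ORF and intergenic names appear exchanged relative to the scanner tables (fits with exchanged names reached r = 0.647, 0.515 and 0.971 on replicates 1 to 3, with own names 0.252, 0.0586 and 0.300). It served for the likely direction and as an alternative. Upstream and ORF features are named here as in the scanner tables, and every upstream and ORF result rests on those names. In the likely direction the Ef1-b control spots had medians of -0.62, -0.78 and 0.74. These were near the ef1-b ORF feature (-0.57, -0.98 and 0.52) and far from its upstream feature (3.30, 1.69 and 3.61). That check covers this gene alone. Software versions and the build were not stated by the labels or headers. Spots rejected in either channel, controls and unnamed spots were left out and saturated spots kept. Log2 ratios were averaged over the kept spots of a feature, at most 2, and centred on the array median. Means were tested with limma 3.58.1 in R 4.3.3 (lmFit, eBayes, intercept only, Benjamini-Hochberg), tested on simulated data. Coordinates and sequences are from RefSeq, ASM294v3. Alternatives covered direction, each replicate, background, loess, centring, undetected and dim spots, limma-trend, GC content and length. Every member and flank feature, list genes that passed, and the 3 nearest features were eligible for naming, with fewer of the nearest printed. The members and lists were chosen with earlier results of these data known.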

Additional observations from a re-analysis of the deposited data

How the results depend on the processing

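With 1 group of arrays no pairing between groups of samples was possible, while the upstream minus ORF differences were paired within each array. The pho1, pho842 and pho7 upstream calls passed under 10 of 13 settings for pho1 and pho842 and 9 of 12 for pho7. With dim spots left out, the pho7 upstream feature was not measured on all arrays and had no test. The calls were lost with the same channel letters, without replicate 1 and with undetected channels set to a low signal. The last lowers the 3-array mean by a median of 0.57 over all features, and gave 0.84, 1.29 and 0.85. On replicate 2 it put the upstream features of pho1, pho842 and pho7 at -0.31, -0.26 and -0.30, below the array median. Their spots were detected in both channels there, so that change is the median shift of replicate 2, -1.35. Loess, centring on shared features and removal of GC content and length raised the 3-array mean by 0.22, 0.16 and 0.15. The upstream minus ORF calls of these genes were also lost without replicate 2 and over pairs on at least 2 arrays. With the same letters the prt2 feature turned to -0.026. The deposited value tables with exchanged names differ from the ratios: on their unknown scale the median percentiles of upstream feature and ORF were 94.2 and 92.1 for pho1, 96.1 and 84.5 for pho842, 91.8 and 97.0 for pho7, 96.0 and 99.0 for pho84, and 86.8 and 77.0 for tgp1, so the ORF ranked higher for pho7 and pho84 and the tgp1 upstream feature passed the 85th percentile. The cause of these differences was not tested.

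Over all features, 396 lay above the median. This count was 0 with the same letters, 80 with undetected channels at a low signal, 653 on at least 2 arrays, and 45 to 552 leaving out 1 replicate. Of the features, 452 lay below. This count was 0 with the same letters, 282 with normexp, 96 with loess, 200 with shared centring, 276 at low signal, 0 with limma-trend, 296 after removing GC content and length, and 6 to 872 leaving out 1 replicate. Pairs with the upstream feature higher numbered 236, then 0 with the same letters, 151 with loess, 0 at low signal, 146 without dim spots, 105 with GC content and length removed, 55 on at least 2 arrays, and 21 to 328 leaving out 1 replicate. The binding list held 437 features, 290 with the same letters, 743 at low signal, 202 when every array had to pass, and 342 to 837 leaving out 1 replicate. The alternatives on at least 2 arrays and on GC content and length were chosen after seeing the data.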

Other observations

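Paralogues of the phosphate transporters, added after their values were seen, gave a mixed picture. The upstream feature of pho841 read 1.40, 0.55 and 2.38 on replicates 1 to 3, above the median on every array, with a mean of 1.44 ± 0.91 (SD, n = 3, limma adjusted p = 0.000976) and -0.14 with the same channel letters. Its ORF read 0.10, -0.29 and 0.84 and missed the test (limma adjusted p = 0.702), with a mean of -0.34 with the same channel letters. The upstream feature of pho843 was measured on replicates 1 and 3, at 0.56 and 0.92, with a mean of -0.18 with the same channel letters. The pho843 ORF read -2.06, -1.31 and -0.13, below the median on every array, with a mean of -1.17 ± 0.97 (SD, n = 3, limma adjusted p = 0.00966) and -1.08 with the same channel letters.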
